A study of Nothobranchius furzeri with 19 samples.

Results

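Female and male whole embryos of the turquoise killifish Nothobranchius furzeri were compared at 10 days post fertilization (dpf). The 6 libraries titled as female or male at this stage were taken, 3 of each sex, out of the 19 libraries of the series. All embryos belonged to the inbred strain GRZ and no allele or agent is named for either sex, so that sex is the only labelled difference between the groups. The labels do not say how many embryos made up a library, whether the libraries of a sex came from separate clutches, or what the replicate number stands for, so that p-values measure the spread between these libraries only. The remaining 13 libraries are trunks and gonads of later ages and were used only where they are named.

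Sex in this species is set by an XX/XY system, and gdf6Y, the Y-chromosomal allele of a growth factor gene of the bone morphogenetic protein (BMP) branch of the TGF-β family, is the male determinant. At 10 dpf the embryo is in organogenesis: brain, retina, muscle, skeleton, blood and skin are being built, and the gonad is a very small share of the tissue. RNA of a whole embryo therefore mostly reports on these somatic organs, and in such bulk RNA fewer cells of a type and less RNA per cell cannot be told apart. Roles stated for genes below are those of their vertebrate, mostly mammalian, counterparts. gdf6Y itself was not analysed here, so the sex labels were not checked against it.

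The libraries held 15563687 (male 3) to 19943569 (male 1) counts over 26740 annotated genes, and between 23109 and 23926 genes had at least 1 count in a library. The 10 most abundant genes took 3.94 to 5.46% of the counts. Levels are given as normalised read counts, which are raw counts divided by a size factor per library (0.770 for male 3 to 1.12 for female 1). No libraries of a sex were duplicates of each other, since the chi-square per degree of freedom between libraries was 11.7 to 23.5 among the females and 59.5 to 148 among the males, where sampling noise alone gives values near 1.

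The male libraries did not lie together. In a principal component analysis of the 500 most variable genes, the first component held 66.7% of the variance and ran from male 1 (score -55.5) to male 3 (39.2). The females lay between them at -2.59, 6.70 and 16.4, and male 2 lay beside the females at -4.27. On the second component (23.1%) male 1 (-16.2) and male 3 (-29.2) were both below the other 4 libraries, which lay between 5.25 and 18.2. The departures of male 1 and male 3 were thus opposite on the first component and shared on the second. Against the female mean, 319 of 20220 genes were 2-fold or more lower in both libraries and 76 were as far higher in both. Another 506 were higher in male 1 and lower in male 3, and 13 the reverse. In male 1, 2554 of the 20220 genes with a mean of at least 10 normalised counts were 2-fold or more above the mean of the other 5 libraries and 321 were as far below it. In male 3 the counts were 746 above and 3314 below, whereas male 2 had 122 above and 118 below and each female library at most 460 above and 446 below.

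**Figure D1:**
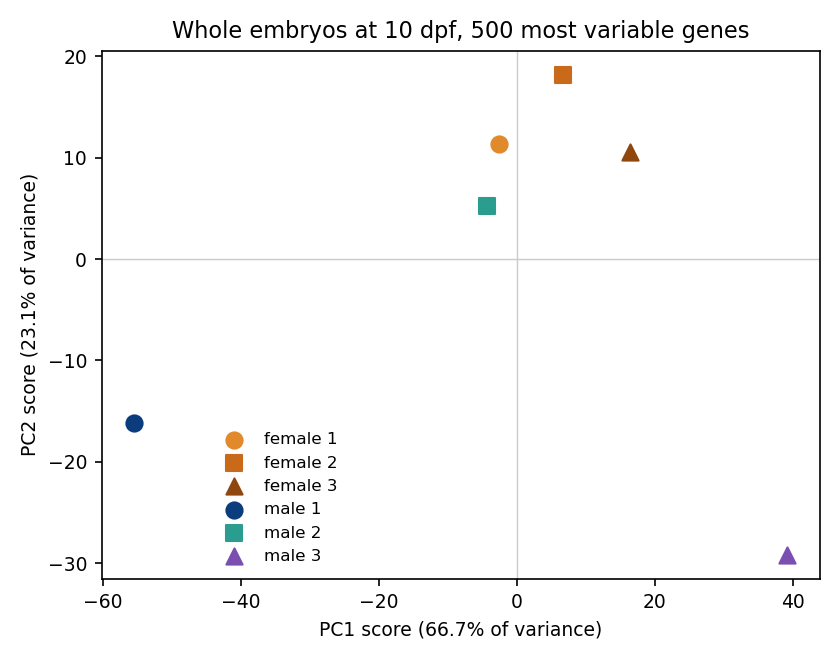
Scores of the 6 libraries on the first (x axis) and second (y axis) principal component, computed from the 500 genes with the largest variance of their log2 level, without units, with the share of variance on each axis. Male 1 and male 3 sit at opposite ends of the first component, at -55.5 and 39.2, and male 2 sits beside the 3 females.

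Between females and males, 46 of 20203 tested genes (0.228%) had a Benjamini-Hochberg adjusted p-value below 0.05 in the DESeq2 Wald test, and 1858 had an unadjusted p below 0.05. Of the 46 called genes, 35 were higher in females (0.173% of the tested genes) and 11 were higher in males (0.0544%). In all 46 the 3 female values did not overlap the 3 male values. This was the case for 16.0% of all tested genes, with the females on the higher side in 9.16% and the males in 6.82%. Of all tested genes, 40.4% had a fitted fold change in favour of the females. With the replicate number as a block, 133 genes were called (0.746% of 17822 tested). Of these, 93 were higher in females (0.522%) and 40 higher in males (0.224%). They included 25 of the 46, namely 18 of the 35 female-higher and 7 of the 11 male-higher genes. The block was taken up because of a correlation in these same counts, and no label says that the numbers pair libraries. edgeR's quasi-likelihood test called 0 of 20160 genes, with a smallest adjusted p of 0.18 and 1341 genes at an unadjusted p below 0.05.

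The number of called genes depended on every single library. Without male 3, 429 genes were called (2.23% of those tested), 166 higher in females (0.863%) and 263 higher in males (1.37%). Without male 2, 236 genes were called (1.23%), 177 higher in females (0.921%) and 59 higher in males (0.307%). Without male 1 only 17 genes were called (0.0680%), 8 higher in females (0.0320%) and 9 higher in males (0.0360%). Leaving out female 1, female 2 or female 3 left 5, 5 and 4 genes. All 35 female-higher genes were called again without male 3, but only 4 of them without male 1. Of the 11 male-higher genes, 10 were called again without male 3 and 9 without male 1. The difference between both shares was not tested. A lost call did not always go with a smaller difference. The log2 fold change of cacna1ab was 1.30 with all libraries, 1.32 without male 1, where its call was lost, and 1.07 without male 3. In Nfu_g_1_005092, which also lost its call without male 1, these values were 1.63, 1.31 and 1.65.

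**Figure D2:**
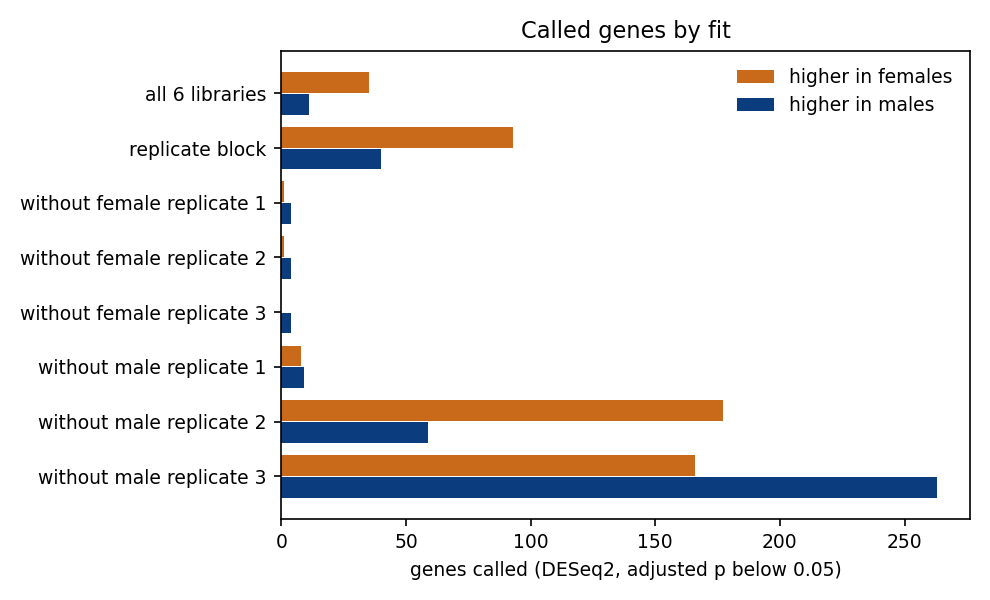
Number of genes called by DESeq2 at an adjusted p below 0.05 (x axis) with all 6 libraries, with the replicate number as a block, and with each library left out in turn (y axis), split by the sex with the higher level. The count falls from 46 to 17 without male 1 and rises to 429 without male 3, where 263 of the genes are higher in males.

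The 11 male-higher genes were high in each of the 3 male libraries, also in male 2. Their median level lay 1.97, 2.1 and 1.81 log2 units above the female mean in male 1, male 2 and male 3. Since these genes were called on the same contrast, this describes them and tests nothing. Of the 11 genes, 8 have a symbol assigned from a zebrafish ortholog, and 5 of these symbols are names of genomic clones or predicted genes, which by themselves tell no function.

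si:ch211-208f21.5 (Nfu_g_1_005006) had the smallest adjusted p of all genes. Its normalised counts were 19.6, 27.24 and 21.9 in the females and 173, 180 and 149 in the males, a 7.31-fold higher level in males (log2 fold change of females against males -2.87 ± 0.31 SE, adjusted p = 1.21e-16). All 3 males stood close together and far above the females. Nfu_g_1_002117, which carries no symbol, was at 1.78, 2.72 and 3.98 in females and at 84.7, 76.1 and 263 in males (50.3-fold, adjusted p = 4.58e-10), with male 3 well above the other males. si:ch211-233b23.4 (Nfu_g_1_014802) was at 44.6, 43.6 and 71.6 in females and at 252, 340 and 536 in males (7.06-fold, adjusted p = 1.41e-09). In both genes the lowest male was far above the highest female, and male 3 was the highest library.

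A pair of genes was nearly silent in females. si:dkey-11o15.10 (Nfu_g_1_015428) had 1 raw count in the 3 female libraries together and 179 in the males, a ratio of 207 after scaling (95% exact counting interval 36.7 to 8219, adjusted p = 1.09e-05), with normalised counts of 76.3, 65.5 and 45.4 in male 1, male 2 and male 3. Nfu_g_1_019311 had no count in any female and 63 raw counts in males, 28.8, 23.3 and 13.0 normalised counts per library. Set against a floor of 3 counts in a female library, its male mean was at least 7.27-fold higher (adjusted p = 0.00113). Intervals and floors cover counting error only. In both genes male 3 was the lowest male and male 1 the highest.

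gsg1l (Nfu_g_1_004887), whose protein is an auxiliary subunit of AMPA-type glutamate receptors, was at 30.3, 33.6 and 25.9 in females and 84.7, 113 and 89.6 in males (3.19-fold, adjusted p = 0.00102). pctp (Nfu_g_1_016576), encoding the phosphatidylcholine transfer protein, was at 27.7, 34.5 and 26.9 in females and 67.9, 95.1 and 105 in males (3.00-fold, adjusted p = 0.0101). stab2 (Nfu_g_1_011842), a scavenger receptor of endothelial cells, showed the smallest fold of the 11, from 116, 126 and 134 in females to 224, 208 and 279 in males (1.89-fold, adjusted p = 0.0466). In these genes the lowest male was above the highest female. The remaining unnamed gene, Nfu_g_1_012184, was at 13.4, 10.9 and 9.95 in females and 47.5, 51.8 and 29.9 in males (3.78-fold, adjusted p = 0.0405).

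si:ch211-212k5.3 (Nfu_g_1_007814) and CR392354.1 (Nfu_g_1_012605) ran in parallel. The former was at 130, 163 and 146 in females and 301, 326 and 515 in males (2.60-fold, adjusted p = 0.00607). The latter was at 140, 185 and 165 in females and 293, 334 and 461 in males (2.21-fold, adjusted p = 0.0204). Their raw counts were also close at the other ages, for example 24 and 28 in the adult ovary and 318 and 335 in the adult testis. Whether both identifiers are near-identical copies that share reads was not tested, so they may not be independent calls.

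**Figure D3:**
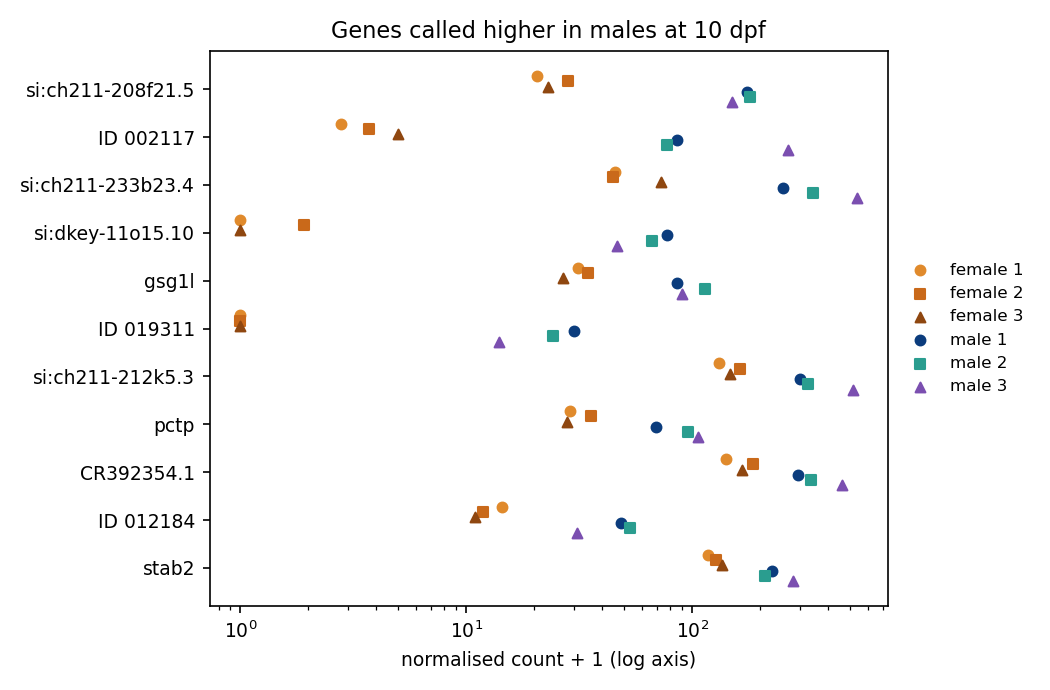
Normalised count plus 1 on a log axis (x axis) of the 11 genes called higher in males (y axis, ordered by adjusted p), with a point for each of the 6 libraries. In every gene the 3 male points, male 2 included, lie to the right of the 3 female points.

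When the called male-higher genes are followed through the fits that touch male 1 and male 3, 7 of 11 kept their call without male 1, without male 3 and with the block: si:ch211-208f21.5, Nfu_g_1_002117, si:ch211-233b23.4, si:dkey-11o15.10, gsg1l, si:ch211-212k5.3 and CR392354.1. The first 4 of them were called in each of the 6 fits with a library left out, and they were also called when male 2 was the only male library (10 male-higher calls in that fit, 0.0402% of the genes tested). In that fit, which assumes that the lone male varies like the females, the adjusted p was 5.87e-06 for si:ch211-208f21.5, 0.00065 for Nfu_g_1_002117, 2.25e-07 for si:ch211-233b23.4 and 0.000987 for si:dkey-11o15.10. Their call therefore did not need male 1 or male 3. The block ended the call of pctp (adjusted p = 0.0619) and of stab2 (0.131), and gave no adjusted p for Nfu_g_1_012184 and Nfu_g_1_019311. Without male 1, stab2 (0.337) and Nfu_g_1_012184 (0.506) were no longer called. The call of pctp was lost without male 2 (0.0602), as were those of stab2 (0.0543) and Nfu_g_1_012184 (0.138). Nfu_g_1_019311 received no adjusted p without male 2 or without male 3. Each female library mattered as well: only si:ch211-208f21.5, Nfu_g_1_002117, si:ch211-233b23.4 and si:dkey-11o15.10 were called whichever female library was left out.

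The raw counts of these genes at later ages, given as ranges over libraries of other tissues, show how far the pattern reaches beyond the embryo. si:dkey-11o15.10 had 0 counts in females and 13 to 45 in males at hatching, and 0 to 1 against 47 to 77 at 3 days post hatching. In gsg1l the ranges at 3 days post hatching were 50 to 55 counts in females and 265 to 333 in males. In stab2 the sexes overlapped at that age, with 603 to 1366 counts in females and 493 to 1737 in males, and also at hatching, with 84 to 710 and 82 to 826. The sexes overlapped at hatching as well in si:ch211-212k5.3 (54 to 104 counts in females, 90 to 134 in males) and CR392354.1 (57 to 104 and 77 to 111). In the other 8 genes they did not overlap at either age.

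The 35 female-higher genes included 7 members of the neuronal gene lists described further on, and in most of them male 1 or male 3 was the lowest library. Their fold changes lay between 1.74 and 5.48, with a median of 2.55, and their adjusted p-values between 0.00106 and 0.0495. Relative to the female mean, their median level was 1.39 log2 units lower in male 1, 1.54 lower in male 3 and 0.93 lower in male 2. Male 2 was the male closest to the females in 31 of the 35 genes, whereas the male farthest from them was male 3 in 19 and male 1 in 15. In 14 genes male 2 was at least 2-fold below the female mean, compared with 32 genes for male 1 and 29 for male 3. Of the 35 genes, 33 carry a symbol. All but 3 of the 35 owe their place in the symbol table to its order by the significance of this very contrast, so that their functions cannot be counted against those of other genes.

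**Figure D4:**
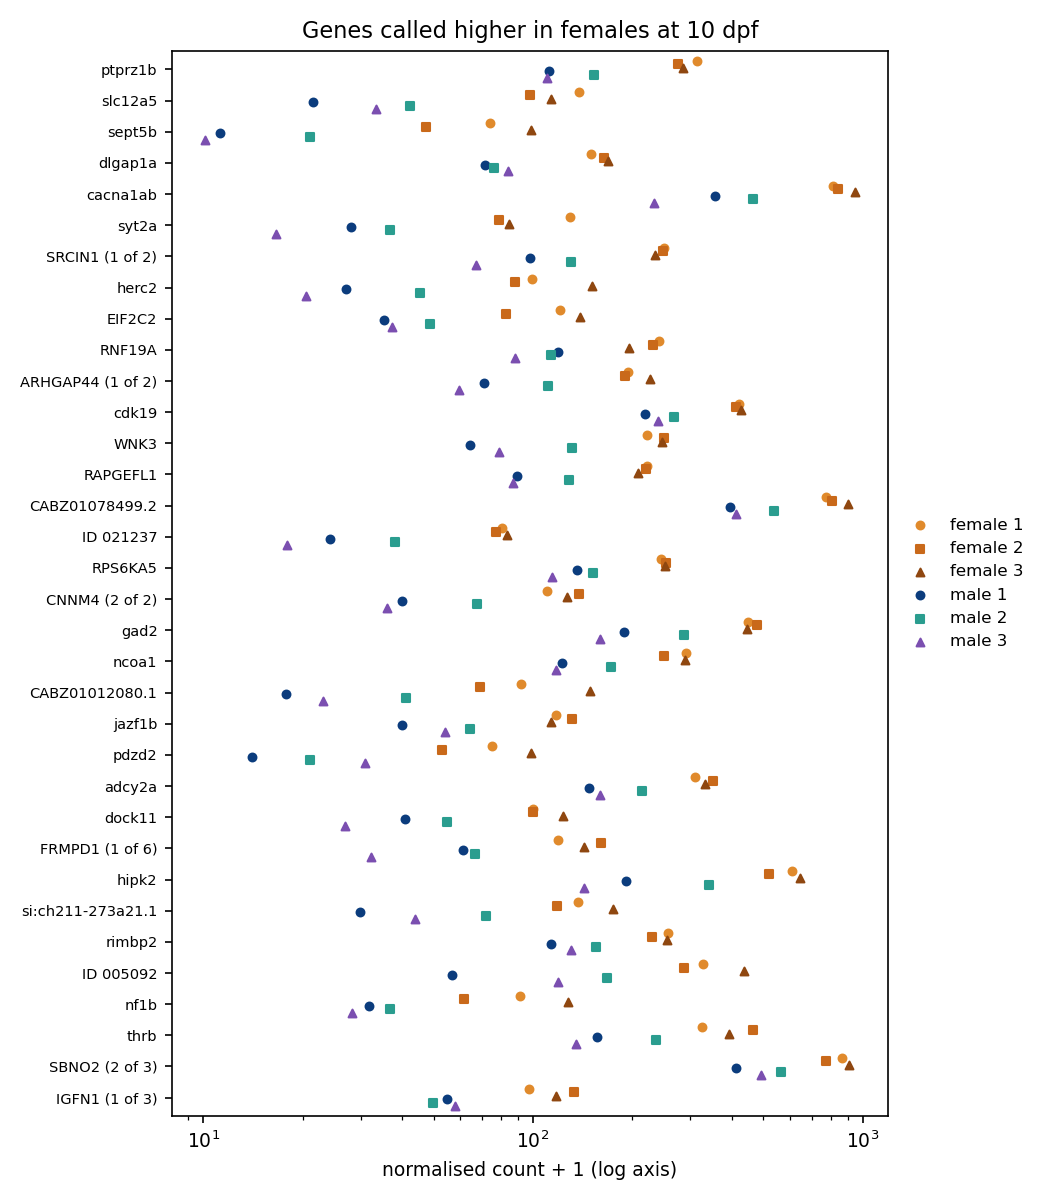
Normalised count plus 1 on a log axis (x axis) of 34 of the 35 genes called higher in females (y axis, ordered by adjusted p), with a point for each of the 6 libraries. The 3 female points lie to the right of the male points in every gene shown, and male 2 is in most of them the male point closest to the females.

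ptprz1b (Nfu_g_1_011567), a receptor-type tyrosine phosphatase of glia and their precursors, led the list with 312, 275 and 285 normalised counts in females and 111, 152 and 109 in males (2.34-fold, log2 fold change 1.23 ± 0.24 SE, adjusted p = 0.00106). slc12a5 (Nfu_g_1_020841), the potassium-chloride cotransporter of neurons, was at 137, 97.2 and 112 in females and 20.5, 41.2 and 32.5 in males (3.70-fold, adjusted p = 0.00113). Both genes kept their call without male 1 (adjusted p of 0.0314 and 0.02), without male 3 and with the block, which held for 3 of the 35 female-higher genes. Neither was called with male 2 as the lone male, where the adjusted p was 0.382 and 0.448. Nor was either called when a female library was left out.

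Several called genes encode proteins of the presynaptic terminal. cacna1ab (Nfu_g_1_007075), the pore-forming subunit of the P/Q-type calcium channel that triggers transmitter release, was at 810, 839 and 949 in females and 356, 464 and 232 in males (2.46-fold, adjusted p = 0.0137). It was the only female-higher gene called with male 2 as the lone male (log2 fold change 0.90, adjusted p = 0.0116), in a fit with 6 female-higher calls (0.0241% of the genes tested). syt2a (Nfu_g_1_001457), a synaptotagmin that senses calcium on synaptic vesicles, was at 129, 78.1 and 83.6 in females and 27.0, 35.9 and 15.6 in males (3.67-fold, adjusted p = 0.0142). SRCIN1 (Nfu_g_1_007709), which binds the vesicle fusion protein SNAP25, was at 248, 247 and 233 in females and 96.8, 129 and 66.2 in males (2.48-fold, adjusted p = 0.0142). In all 3 genes male 3 was lowest and male 2 highest among the males. Without male 1 the adjusted p was 0.0741, 0.137 and 0.137, so that none remained called.

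rimbp2 (Nfu_g_1_009036), which links calcium channels to the release machinery, was at 256, 229 and 254 in females and 113, 154 and 130 in males (1.86-fold, adjusted p = 0.0484). dlgap1a (Nfu_g_1_010641), a scaffold of the postsynaptic density, was at 149, 163 and 168 in females and 70.7, 75.1 and 83.1 in males (2.11-fold, adjusted p = 0.0101), and here the 3 males agreed closely. gad2 (Nfu_g_1_011466), an enzyme that makes the inhibitory transmitter GABA, was at 447, 476 and 446 in females and 188, 285 and 158 in males (2.16-fold, adjusted p = 0.0405). All 3 calls were lost without male 1 (adjusted p of 0.457, 0.193 and 0.374). The block ended those of rimbp2 (0.14) and dlgap1a (0.113), but not that of gad2 (0.014).

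The remaining genes among the 15 with the smallest adjusted p were not members of the neuronal lists. Whether they act in neurons was not examined. The septin gene sept5b (Nfu_g_1_010783) had the largest fold of the 35, from 73.2, 46.3 and 97.5 in females to 10.2, 20.1 and 9.09 in males (5.48-fold, adjusted p = 0.00405), and was the only female-higher gene called again without female 2 (0.0172). herc2 (Nfu_g_1_014732), a large ubiquitin ligase, was at 98.2, 87.2 and 150 in females and 26.1, 44.4 and 19.5 in males (3.71-fold, adjusted p = 0.0142). EIF2C2 (Nfu_g_1_012959), an Argonaute protein of the small RNA pathway, was at 120, 81.7 and 138 in females and 34.4, 47.6 and 36.4 in males (2.87-fold, adjusted p = 0.0174). The females spread widely in these genes, with the lowest female still above the highest male.

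WNK3 (Nfu_g_1_021521), a kinase that regulates cation-chloride cotransporters, was at 221, 249 and 245 in females and 63.3, 130 and 77.9 in males (2.64-fold, adjusted p = 0.0201). cdk19 (Nfu_g_1_005533), a kinase of the Mediator complex, differed least in fold among the 15 genes, 420, 411 and 428 against 218, 267 and 238 (1.74-fold, adjusted p = 0.0177), with close replicates in both sexes. ARHGAP44 (Nfu_g_1_000939), a GTPase-activating protein, and RAPGEFL1 (Nfu_g_1_014188), a guanine nucleotide exchange factor-like protein, were 2.55- and 2.14-fold higher in females (adjusted p of 0.0177 and 0.0204). RNF19A (Nfu_g_1_017372), a ubiquitin ligase, stood out by its order of libraries, since its females at 240, 230 and 195 faced males at 118, 112 and 87.0, with male 1 closest to the females (2.09-fold, adjusted p = 0.0174). It was called without male 1 (adjusted p = 0.0499) and without male 3 (0.0111). The block ended the calls of RNF19A (0.0619), EIF2C2 (0.0619), RAPGEFL1 (0.0619) and cdk19 (0.115). Without male 1 the calls of sept5b (0.0741), herc2 (0.193), EIF2C2 (0.286), WNK3 (0.137), cdk19 (0.286), ARHGAP44 (0.286) and RAPGEFL1 (0.304) were lost.

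To describe tissues as a whole, 15 lists of genes were followed in each library. Symbols were known for 2830 identifiers only. They stem from 1999 consecutive identifiers, which were not chosen by any result, and from 901 genes taken in the order of their significance in this contrast. List members of the latter kind were selected for a sex difference, so the consecutive members are given apart, beside the values over all tested genes. The consecutive identifiers are not a random sample of the genome either. Of the uncalled ones that could be placed by symbol, 22.3% lie on the chromosome of the sex-determining gene, beside 5.46% of all named genes. Whether this bears on the list medians was not tested. In all tested genes the median log2 fold change of females against males was -0.077, and no library median departed from the female mean by more than 0.034. Of the consecutive identifiers, 1656 were tested and 3 were called, all higher in females (0.181%, beside the 0.228% of all genes).

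The 4 neuronal lists, covering transmitter receptors, voltage-gated channels, synaptic vesicle and scaffold proteins, and transmitter synthesis and transport, were lower in all 3 males when their members were pooled. In the synaptic list alone, the median of the consecutive members was -0.14 in male 2 and -0.16 in female 3, so that male 2 lay within the female range. Of their 140 members, 136 were tested, and 7 were called higher in females (beside 0.173% of all tested genes) and 0 higher in males. gsg1l, an auxiliary subunit of AMPA-type receptors that was called higher in males, is not a member of these lists. The count of 0 therefore holds for the listed members only and not for all genes of neurons. Only 1 of the 46 consecutive members tested, syt2a, was among the 7, yet 41 of these 46 had a fitted fold change in favour of females, with a median of 0.52 on the log2 scale. Relative to the female mean, the median level of the consecutive members was -0.70 in male 1, -0.25 in male 2 and -0.60 in male 3, and between -0.093 and 0.15 in the females. The summed normalised counts of all 140 members ranged from 66101 to 82632 in the females and from 40811 (male 1) to 55923 (male 2) in the males. No member was at 0 in any library. These sums did not overlap, but 90 of the 140 members came from the ordered table and were selected for a sex difference. Of the 90, 89 had a fitted fold change in favour of females. The gap between the sums cannot be separated from that selection, and the consecutive members were not summed alone. The part of the library levels of these lists in the calls of single neuronal genes was not tested. With the replicate block, 20 of 130 tested members were called higher in females and 0 higher in males. In that fit 0.522% of all genes were called higher in females. Of the 20, 17 came from the ordered table, and 3 of 42 tested consecutive members were called. Without male 1 the number was 1 of 140 (0.0320% of all genes), with 0 of 50 consecutive members. Without male 3 it was 19 of 135 (0.863% of all genes), with 3 of 45 consecutive members. Since members from the ordered table were selected on this contrast, their share cannot be set against that of all genes.

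The most abundant consecutive members of these lists were not called. gria4a (Nfu_g_1_000721), a subunit of AMPA receptors, was at 1258, 1875 and 1636 normalised counts in females and 717, 1131 and 1463 in males (adjusted p = 0.641). grin2db (Nfu_g_1_001314), a subunit of NMDA receptors, was at 1385, 1528 and 1588 in females and 650, 1059 and 1351 in males (adjusted p = 0.587). Male 1 was the lowest library in both genes, and male 3 lay within the female range in the former and just below it in the latter. In the list of channels, cacng8b (Nfu_g_1_001257) was at 897, 1153 and 986 in females and 530, 815 and 775 in males. The sodium channel subunit scn3b (Nfu_g_1_000584) was highest in male 3, at 898, against 501 to 686 in females (adjusted p of 0.533 and 0.963).

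Copies and relatives of called genes did not always follow them. The other SRCIN1 identifier, Nfu_g_1_000798, was at 1861, 2622 and 2307 in females and 1267, 1775 and 1802 in males, without overlap but also without a call (adjusted p = 0.551). The other slc12a5 identifier, Nfu_g_1_001404, was at 284, 550 and 344 in females and 169, 238 and 85.7 in males (log2 fold change 1.25 ± 0.43 SE, adjusted p = 0.298), and was called with the block (0.014). DLGAP4 (Nfu_g_1_001413), a relative of dlgap1a, was at 1543 to 1819 in females and at 1119, 1735 and 2422 in males (adjusted p = 0.952). How the counting divided reads between such copies is not known, so single members of these families are uncertain.

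Genes of photoreceptors and lens set male 3 apart. Of the 30 tested members of 32, none was called in the comparison with all 6 libraries. The consecutive members had a median level of -1.30 in male 3, -0.68 in male 1 and -0.18 in male 2, while the females spread from -0.50 to 0.62. rho (Nfu_g_1_001501), the light-sensing opsin of rods, was at 422, 2848 and 667 normalised counts in females and at 379 and 928 in male 1 and male 2, but at 1.30, or 1 raw count, in male 3. In a similar way gnat1 (Nfu_g_1_021245), the rod transducin, was at 62.5, 333 and 84.6 in females, 44.7 and 68.7 in male 1 and male 2, and 3.90 in male 3. rcv1 (Nfu_g_1_001083), a recoverin-family calcium sensor of photoreceptors, was at 450, 903 and 539 in females, 330, 422 and 48.0 in males. The lens crystallin crybb1l3 (Nfu_g_1_000306) was less low in male 3, at 2586 against 3080 to 3808 in females and 3972 and 5311 in the other males. None of these genes differed between the sexes by the test (adjusted p of 0.851, 0.475, 0.568 and 0.903). With the block, 3 of 27 tested members were called higher in females. These were gnat1 (adjusted p = 0.0189), rgs9a (0.0189) and cdhr1a (Nfu_g_1_002793, 0.0143), all taken from the ordered table, of which rgs9a and cdhr1a are named here because they were called. Their share can therefore not be set against the 0.522% of all genes called higher in females with the block. Without male 3, no member was called higher in females, beside 0.863% of all genes in that fit. Of the 30 tested members 2 lens genes were called higher in males, lim2.1 (adjusted p = 0.011) and mipa (0.000435). In that fit 1.37% of all genes were called higher in males. Of the 2 lens genes, 1 was a consecutive member and 1 came from the ordered table, so their share cannot be set against that of all genes.

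**Figure D5:**
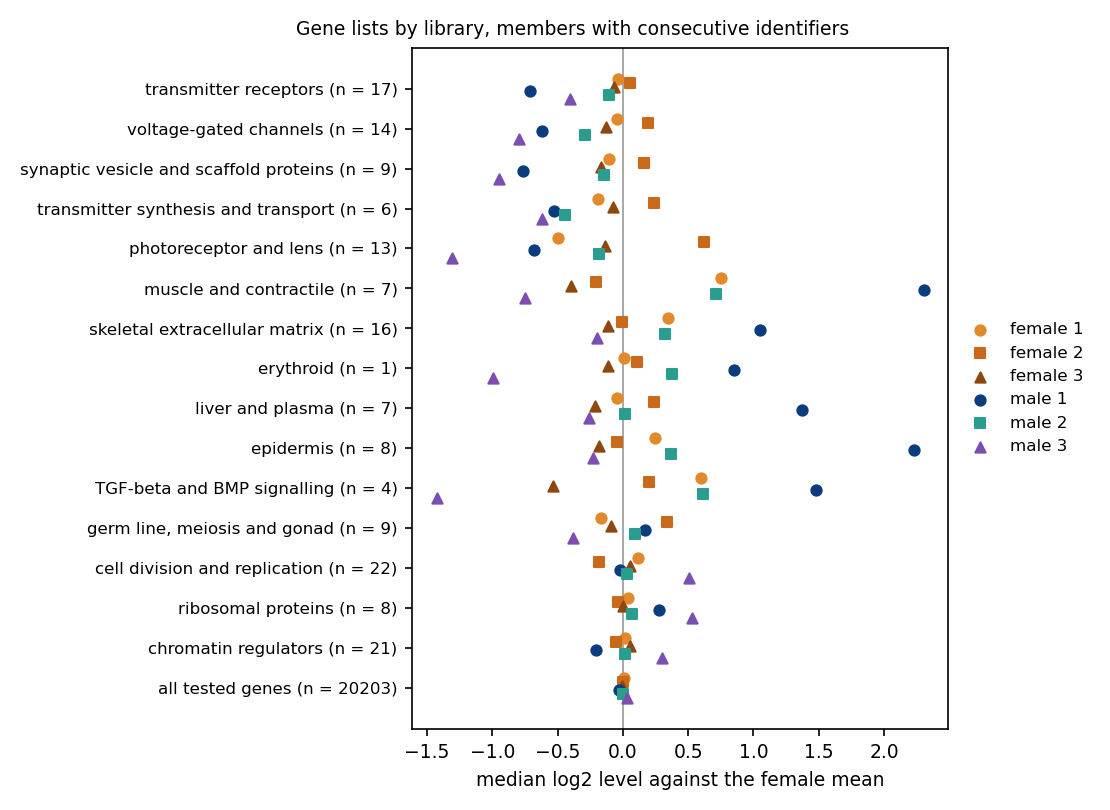
Median log2 level against the female mean (x axis) of the tested members with consecutive identifiers in 15 gene lists and of all tested genes (y axis, with the number of genes), with a point for each of the 6 libraries. In the neuronal lists male 1 lies between -0.76 and -0.53, and in muscle, matrix, blood, liver and skin between 0.85 and 2.30. Male 3 lies below all 3 females in both kinds of list. The blood list, which gives the value of 0.85, holds only 1 gene here.

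Muscle, skeletal matrix, blood, liver and skin genes were highest in male 1. No member of these 5 lists was called in either direction. Of their 97 tested members 88 had a fitted fold change in favour of males, beside 12046 of 20203 tested genes. Members from the ordered table, selected for a sex difference, are among the 97. Without male 1, the median log2 fold change of females against males of the consecutive members was -0.017 for muscle and -0.14 for matrix. It was -0.20 for the erythroid list, which rests on 2 such members, 0.074 for liver and plasma and -0.24 for epidermis. That fit tested more members of some lists, 21 instead of 16 consecutive ones for matrix and 9 instead of 7 for liver and plasma. The consecutive members of the muscle list had a median of 2.30 in male 1, 0.71 in male 2 and -0.75 in male 3, and 0.75, -0.21 and -0.40 in the females. For the epidermis list the medians were 2.23, 0.37 and -0.23 in the males, and for the liver and plasma list 1.37, 0.017 and -0.26. For the skeletal matrix they were 1.05, 0.32 and -0.20. Members from the ordered table, which were selected for a sex difference, were in several lists above the female mean in male 3 as well. This held for the muscle list (0.65), the matrix list (0.43), the erythroid list (0.44) and the liver list (0.95), but not for the epidermis list (-0.38). The summed counts of the whole epidermis list were 106106 in male 1, 33025 in male 2 and 18611 in male 3, against 17651 to 32578 in females. The sums of the erythroid list were 48405 in male 1, 11252 in male 2 and 8433 in male 3, against 6344 to 8504 in females.

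Single genes show the size of the departure. krt5 (Nfu_g_1_001437), a keratin of the epidermis, was at 18115, 11819 and 8807 in females and 59351, 18290 and 10092 in males (adjusted p = 0.555). col2a1a (Nfu_g_1_001498), the collagen of cartilage, was at 13092, 5966 and 2352 in females and 36101, 12185 and 1884 in males (adjusted p = 0.804). tnnc1b (Nfu_g_1_001984), a troponin C of striated muscle, was at 1211, 601 and 461 in females and 3431, 1128 and 413 in males (adjusted p = 0.629). In krt5, col2a1a and tnnc1b the libraries of both sexes were highest at number 1 and lowest at number 3. serpina1 (Nfu_g_1_000093), a protease inhibitor secreted by the liver, was at 1579 in male 1 and 200 and 208 in the other males, against 220 to 328 in females (adjusted p = 0.581).

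The other abundant members of these lists differed less. hsp47 (Nfu_g_1_000192), a collagen chaperone, was at 2818, 1530 and 1540 in males and 921 to 1390 in females (adjusted p = 0.497), and txlnba (Nfu_g_1_000099), listed with muscle, at 2845, 1584 and 1791 in males and 1408 to 1873 in females (0.767). vtna (Nfu_g_1_000296), the plasma protein vitronectin, was at 605 in male 1 and within 327 to 427 in the other 5 libraries (0.86). glrx5 (Nfu_g_1_000105), a glutaredoxin needed for heme synthesis, was at 119, 85.6 and 32.5 in males and 60.7 to 70.8 in females (0.896). krt18 (Nfu_g_1_001524), a simple epithelial keratin, was at 7961, 6513 and 3957 in males and 4269 to 6941 in females (0.974). With the block, 4 of the 7 tested erythroid members were called higher in males, and all 4 were embryonic globins: hbbe1.1 (Nfu_g_1_007507, adjusted p = 0.039, and Nfu_g_1_007560, 0.00484), hbae1 (0.0143) and hbbe2 (0.0361). They come from the ordered table and are named because they were called. Their share can therefore not be set against the 0.224% of all genes called higher in males with the block. Whether these globin identifiers share reads was not tested. Without male 3, 19 of the 97 tested members of the 5 lists were called higher in males, and 1.37% of all genes tested in that fit. Of these 19, 5 were consecutive members. The others came from the ordered table, so the shares cannot be compared.

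Genes of the TGF-β and BMP pathway, to which gdf6Y belongs, gave no call. Of 14 members 11 were tested, and 10 of these had a fitted fold change in favour of males. Of all 20203 tested genes, 12046 did so. Of the 11 members, 7 came from the ordered table and 4 were consecutive. Without male 1, 7 of 14 tested members were in favour of males, and 1 of 7 consecutive members. The BMP-responsive repressor id1 (Nfu_g_1_021185) was at 2004, 1575 and 1686 in females and 2392, 2146 and 2742 in males (log2 fold change -0.47 ± 0.20 SE, adjusted p = 0.459). Its relative id3 (Nfu_g_1_015039) was at 870, 717 and 712 in females and 1576, 904 and 1145 in males (-0.66 ± 0.27 SE, adjusted p = 0.442). In both genes all males were above all females, as in 6.82% of all tested genes. Both genes were taken from the ordered table. The signal transducer smad9 (Nfu_g_1_001408) was at 18.7, 6.36 and 8.95 in females and 23.3, 19.03 and 1.30 in males (adjusted p = 0.925). Among the more abundant consecutive members of the list, ZFP36 (Nfu_g_1_000759) was at 348, 273 and 177 in females and 934, 338 and 105 in males. It encodes an mRNA decay factor and not a component of the pathway itself. The co-receptor tgfbr3 (Nfu_g_1_000929) was at 79.4, 58.1 and 21.9 in females and 311, 86.7 and 24.7 in males (adjusted p of 0.787 and 0.615). In both genes male 1 was the highest library by far, and the libraries of both sexes were highest at number 1 and lowest at number 3. Male 3 was below the lowest female in ZFP36 and just above it in tgfbr3.

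Of the 17 genes listed for germ line, meiosis and gonad, 13 were tested and 4 fell below the filter on low counts. The called members were pctp, higher in males, and RNF19A, higher in females, and neither of them is a germ line gene by its known role. Both came from the ordered table and were thus selected on this contrast. Their share can therefore not be set against the 0.228% of all tested genes. Of the 9 consecutive members tested, 0 were called. sybu (Nfu_g_1_016781), a microtubule-associated protein of axonal transport, was at 53.5, 149 and 76.6 in females and 35.4, 39.1 and 44.1 in males, without overlap and without a call (adjusted p = 0.374). The meiotic cohesin gene rec8 (Nfu_g_1_001081) was at 14.3, 21.8 and 15.9 in females and 18.6, 11.6 and 11.7 in males (adjusted p = 0.9). The identifiers of the steroid 11β-hydroxylase cyp11c1 were at 19.6, 26.3 and 14.9 in females and 16.8, 13.7 and 5.19 in males (Nfu_g_1_001331, adjusted p = 0.786), and at 2.68, 9.08 and 5.97 in females and 38.2, 12.7 and 3.89 in males (Nfu_g_1_001333, 0.624). A sex difference was not detectable at these counts.

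sox9a (Nfu_g_1_022861), a transcription factor of cartilage and of Sertoli cells, was at 636, 569 and 580 in females and 1296, 821 and 682 in males (log2 fold change -0.65 ± 0.29 SE, adjusted p = 0.493). All males were above all females, and male 1 was highest, as in the cartilage collagen col2a1a. It was called without male 3 (adjusted p = 0.0245). ctnnb1 (Nfu_g_1_001773), which encodes β-catenin, was at 8076, 7681 and 7483 in females and 8691, 8518 and 9974 in males (adjusted p = 0.695), and the Wnt ligand gene wnt4b (Nfu_g_1_001049) was at 293 to 472 in females and 306 to 390 in males (adjusted p = 0.93).

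Genes of cell division and of the ribosome were highest in male 3. The 22 tested cell division members, all consecutive, had a median level of 0.51 in male 3, -0.020 in male 1 and 0.034 in male 2, and -0.18 to 0.11 in the females. The condensin subunit smc4 (Nfu_g_1_000255) was at 9877 in male 3 and at 4345 to 5203 in the other 5 libraries, and the kinetochore motor CENPE (Nfu_g_1_000450) at 2994 against 1601 to 2154 (between the sexes, adjusted p of 0.804 and 0.866). The 8 consecutive ribosomal protein members had medians of 0.28, 0.072 and 0.53 in the males. rpl5b (Nfu_g_1_000974) was at 47037, 44744 and 45919 in females and 60436, 48178 and 65733 in males, and rps7 (Nfu_g_1_000119) at 39097, 39140 and 40503 against 48295, 41053 and 57841. The males lay above the females in both genes, without a call (adjusted p of 0.59 and 0.65). The 21 consecutive chromatin regulators had medians of -0.21, 0.019 and 0.30 in the males, while the 9 members from the ordered table were at -1.28, -0.66 and -0.89. Among the most abundant of the former, chd4b (Nfu_g_1_001251) was at 5357 to 5690 in females and 5386 to 5666 in males, and arid1aa (Nfu_g_1_001802) was at 6028 to 6566 in females and 5475, 6608 and 8426 in males (adjusted p of 0.972 and 0.904).

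The genes by which male 1 and male 3 differed most from the other 5 libraries were looked up among those with a symbol and a mean of at least 50 normalised counts. In male 1, the 5 highest were zgc:136254 at 1491 normalised counts (6.97 to 28.6 elsewhere), si:dkey-205h13.2 at 304 (0 to 11.6 elsewhere) and 3 identifiers named apnl, at 816, 770 and 614 (14.3 to 40.2 elsewhere). The apnl genes may share reads, and none of the 5 received an adjusted p between the sexes. The 5 lowest in male 1 were slc12a5 and CABZ01012080.1, both among the called genes, together with lcor, EP400 and syne2a. EP400, a chromatin remodelling ATPase, was at 202 in male 1, at 487 and 530 in the other males and at 838 to 1191 in females (adjusted p = 0.16). These 5 came from the ordered table, whereas the 5 highest were consecutive identifiers.

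In male 3, the called si:ch211-233b23.4 was the highest gene against the other libraries. It was followed by ttll6 at 702 (152 to 280 elsewhere), si:ch211-209j12.2 at 1353 (324 to 510), tax1bp1a at 435 (116 to 170) and trmt11 at 1462 (423 to 614). The lowest was rho, at a log2 level of -8.40 against the mean of the other libraries, then gnat1 at -4.19 and si:dkey-205h13.2 at -4.18. cacng6b followed at 6.49 normalised counts (36.8 to 235 elsewhere), and rcv1 at 48.0 (330 to 903 elsewhere). Apart from si:ch211-233b23.4, none of these 10 genes was called between the sexes.

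When each male was set alone against the 3 females, DESeq2 called 4323 genes for male 1 (20.5% of those tested, 8.15% higher in females and 12.4% higher in the male), 5897 for male 3 (30.9%, 15.7% and 15.2%) and 16 for male 2 (0.0643%), on the assumption that a lone male varies like the females. These fits share the 3 female libraries. Of the 35 female-higher genes, 35 were called for male 1, 33 for male 3 and 1 for male 2, and of the 11 male-higher genes 10, 8 and 4.

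The place of called genes relative to the sex-determining gene was examined by symbol in the RefSeq annotation of the assembly NfurGRZ-RIMD1, in which the gene is named gdf6a. This assembly is not stated to be the one used for counting, and a symbol may match a paralog, so no positions are given. Of the 11 male-higher genes 3 matched, and 2 of them, gsg1l and pctp, lie on the chromosome of gdf6a, whereas stab2 does not. Of the female-higher genes 17 of 35 matched, and 2 of these lie on that chromosome, RNF19A and adcy2a. Of the 382 uncalled genes that matched from the ordered table, 26 (6.81%) lie there, compared with 5.46% of all 20266 named genes on chromosomes. Among the consecutive identifiers the share was 22.3%, so that this stretch of identifiers is not a random sample of the genome. With so few matched genes this is a description only.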

How the data were processed

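Total RNA of whole embryos was sequenced from TruSeq RNA v2 libraries. As deposited, the table holds raw read counts for 26740 genes in 19 libraries, which the authors made with bcl2fastq 1.8.4, a filter on read quality, length and low complexity (sga), STAR and summarizeOverlaps. Counting mode and strand setting are not given in the sources used here. All 19 columns were matched to samples and 0 rows named no gene. Columns of the study's own comparisons in its supplement were not used.

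Counts of the 3 female and 3 male libraries at 10 dpf were tested with DESeq2 1.42.0 (R 4.3.3, Wald test on sex alone, all genes that had 1 count or more, Benjamini-Hochberg adjustment at 0.05 with independent filtering). The scripts were tested on simulated data. Depth per library is given with the results and limits the precision of genes with few counts. Log2 levels per library used a pseudocount of 1, and list medians are medians over genes.

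Alternatives were edgeR 4.0.16 (quasi-likelihood), TMM factors, other filters, 1 fit over 17 libraries, the replicate number as a block, and fits without single or several libraries. The replicate number was tried as a block because the deviations of same-numbered libraries from their group means correlated across genes. The r was 0.423 for number 1, 0.180 for number 2 and 0.540 for number 3. For libraries with unlike numbers it was -0.478 to 0.0300. These correlations come from the same counts and from 3 libraries per sex, so they cannot show that the numbers pair the samples. The labels do not say what a number stands for.

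Symbols were taken from the study's supplement for 2830 identifiers. Of these, 1999 are consecutive identifiers and 901 come from a table in the order of the significance of this contrast, with 70 in both. The sexes, members and lists were chosen with earlier results of these data known. Named genes are all male-higher calls, the 15 female-higher calls with the smallest adjusted p, called list members and the 2 most abundant consecutive members per list, id1, id3, smad9, rec8, sybu, pctp, RNF19A, sox9a and cyp11c1, the 5 highest and 5 lowest genes of male 1 and of male 3, and the calls kept without male 1, without male 3 and with the block. Some genes under this rule are not reported here. Any other gene was named after its values were seen.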

Additional observations from a re-analysis of the deposited data

How the results depend on the processing

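The 46 calls among 20203 tested genes became 27 among 25075 without independent filtering, 18 higher in females and 9 in males. In 1 fit over 17 libraries 138 of 23629 tested genes were called. Of these, 40 were higher in females and 98 in males, so the balance of 35 to 11 was turned round. They included 22 of the 35 female-higher and 10 of the 11 male-higher genes. edgeR's quasi-likelihood test called 0 of 20160 genes, also with the replicate block. There the smallest adjusted p was 0.0760 and 1976 genes had an unadjusted p below 0.05. The replicate block in DESeq2 gave 133. Leaving out a library or a replicate number gave 4 to 429, male 2 as the only male 16, male 3 as the only male 5897 and male 1 as the only male 4323. TMM factors, a minimum of 10 counts, a 2-fold minimum and no Cook's filter gave 47, 45, 39 and 47. The genes tested in these fits numbered 20688, 20711, 20203 and 20745. The first component held 61.4% of the variance with 2000 genes and 56.2% with all genes of a mean of at least 10. Among the 28 called named genes no direction was reversed (321 fits kept the call, 267 lost it). The sexes did not overlap in any of these genes, so leaving out libraries gave the direction no room to reverse. The absence of reversals therefore cannot be set against those of uncalled genes. Among the 37 uncalled named genes the direction was reversed in 57 fits, and 35 fits gave a call. The cause was not tested.

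The reversed log2 fold changes (females against males) of uncalled genes follow. With male 3 as the only male they were 0.63 for cyp11c1 (Nfu_g_1_001333), 3.16 for smad9, 0.49 for crybb1l3, 0.91 for tnnc1b, 1.95 for col2a1a, 1.05 for glrx5, 0.35 for serpina1, 0.16 for vtna, 0.38 for krt5, 0.61 for krt18, 1.37 for ZFP36 and 1.14 for tgfbr3. With male 2 as the only male they were 0.16 for scn3b, 0.016 for txlnba, 0.38 for serpina1, -0.068 for wnt4b, 0.010 for smc4, 0.097 for CENPE (Nfu_g_1_000450) and -0.025 for chd4b. With male 1 as the only male they were -0.12 for rec8, 0.36 for scn3b, 0.56 for DLGAP4, 0.11 for smc4, 0.0017 for CENPE and 0.19 for arid1aa. With a library or a replicate number left out, the range was -0.93 to 0.18 for smad9, -0.23 to 0.26 for scn3b, -0.31 to 0.21 for DLGAP4, -0.46 to 0.22 for crybb1l3, -2.0 to 0.025 for col2a1a, -0.65 to 0.16 for glrx5 and -1.96 to 0.44 for serpina1. It was -0.48 to 0.13 for vtna, -0.30 to 0.19 for krt18, -1.27 to 0.27 for ZFP36, -0.11 to 0.24 for wnt4b, -0.62 to 0.056 for smc4, -0.41 to 0.046 for CENPE, -0.24 to 0.055 for arid1aa and -0.023 to 0.089 for chd4b. Of 90 list medians 86 moved by less than the replicate spread, and 4 by more. With male 2 as the only male these were synaptic proteins (0.43) and ribosomal proteins (-0.08). Without male 1 they were TGF-β and BMP signalling (0.041) and germ line (0.52). In that fit 14 and 17 members of these lists were tested, beside 11 and 13 with all libraries. The part of the added members in these shifts was not tested. The replicate spread includes male 1 and male 3, so a median within it need not be stable. The epidermis median, not among the 4, was -1.67 with all libraries, -0.21 without male 1 and 0.42 with male 3 as the only male. For the neuronal lists together the medians in these fits were 0.72, 0.64 and 0.95. Depth limits what can be seen in genes with few counts, such as rec8, cyp11c1 and smad9.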
